A study of Mus musculus with 15 samples.

Results

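The TGF-beta pathway was followed in 105K tumors through 9 genes, picked by symbol from the 24891 genes of the FPKM table: the ligands TGFB1, TGFB2 and TGFB3, the receptors TGFBR1 and TGFBR2, the activin subunit INHBA, the signal transducer SMAD3, and the targets SMAD7 and TGFBI. All 9 symbols were present, and mouse genes are written in capitals here because the table lists them that way. 105K is 1 line of Tsc2-/- mouse renal tumor cells, so every group lacks Tsc2, including the controls. The cells stably expressed a control shRNA (sh-NC) or 1 of 2 shRNAs against B7-H3, the checkpoint protein encoded by CD276. The shRNAs are called sh-B7-H3 (1) and, for the other sequence, sh-B7-H3 (2). The cells were grown subcutaneously with matrigel in 6-week-old male wild-type C57BL/6J mice. RNA was sequenced from 15 libraries, 3 in each of 5 groups: sorted cells of the control and of each shRNA against B7-H3, and whole (bulk) tumors of the control and of sh-B7-H3 (1). Sorted cells were those left after magnetic depletion of host cells, whereas bulk tumors held both tumor and host cells.

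TGF-beta ligands are secreted in a latent complex, held by latent TGF-beta binding proteins and released by integrins or proteases. The freed ligand binds TGFBR2, which recruits and phosphorylates TGFBR1, and TGFBR1 in turn phosphorylates SMAD2 and SMAD3. SMAD3 enters the nucleus with SMAD4 and switches on targets that include the inhibitory SMAD7, a brake on the receptor, and TGFBI, a secreted matrix protein. INHBA homodimers form activin A, which signals through its own receptors to the same SMAD proteins. In tumors the pathway is known for matrix deposition and for restraining immune cells.

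The target of the shRNAs was checked first. CD276 was 34.0, 20.0 and 17.3 scaled FPKM (the deposited level per transcript length and library total, divided by a size factor of the library) in sorted sh-NC cells and 7.29, 13.96 and 11.5 in sorted sh-B7-H3 (1) cells. It was 23.3, 25.4 and 25.7 in the libraries labelled sh-B7-H3 (2), which overlapped with sh-NC. In bulk it was 20.8, 23.2 and 23.5 with sh-NC and 22.3, 17.8 and 24.4 in the libraries labelled sh-B7-H3 (1). CD276 did not pass the test in any comparison of an shRNA with sh-NC (adjusted p from limma between 0.0547 and 0.775), so shRNA names below are those of the labels. The library of sorted sh-B7-H3 (2) replicate 1 stood apart. Its summed leukocyte markers were 353 scaled FPKM, against 5.84 to 12.03 in the 8 other sorted libraries and 339 to 665 in bulk. Its summed markers of macrophages (396 against 30.9 to 94.8), T cells (23.1 against 0.520 to 2.11), endothelial cells (33.0 against 1.61 to 2.58), fibroblasts (187 against 53.6 to 129) and the Y chromosome (4.88 against 0.277 to 0.887) were also above those of the 8. The macrophage sum was 30.9 to 44.4 in sorted sh-NC cells and at least 61.6 in the sorted libraries labelled sh-B7-H3. Only CD68 and CSF1R of its markers lay higher in all of these. CD68 was 25.0 to 33.3 and 50.9 to 83.1, and CSF1R 0.567 to 1.30 and 4.76 to 23.3. The other macrophage markers overlapped, such as C1QA with 1.38 to 2.73 and 0.863 to 2.85 outside the library that stood apart. The T cell sum was 0.520 to 0.814 in sorted sh-NC cells and at least 1.30 in those labelled sh-B7-H3. LCK was 0.380 to 0.718 and, outside the library that stood apart, 0.892 to 1.79. Each other T cell marker was at most 0.245 in the 8 sorted libraries, so near 0. The leukocyte, endothelial, fibroblast and Y chromosome sums of sorted sh-NC and sh-B7-H3 (1) overlapped. The part of such cells in the sorted changes was not tested. The summed tumor epithelial markers were 1110 to 1243 in sorted sh-NC cells and 1962 to 2257 in the 6 sorted libraries labelled sh-B7-H3. The 10 markers did not move as a set. EPCAM was 17.2 to 27.4 in sorted sh-NC cells and 126 to 221 in the 6, whereas CDH1 was 210 to 357 and 166 to 229. Library depth was known only relative to sorted sh-NC replicate 1 and ran from 0.468 to 1, so the precision of a low FPKM in reads is not known. The p-values below measure the spread between these libraries, which the study's methods call biological samples.

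TGFBR2, the receptor that binds the ligand first, stood at the top of the 9 genes in each group (chr9:116084293-116175360, minus strand, mm10). FPKM is a level per length, so genes can be ranked by it. In sorted sh-NC cells TGFBR2 averaged 93.6 ± 20.7 scaled FPKM (SD, n = 3), followed by TGFB1 with 20.8 ± 5.29 and TGFB3 with 17.6 ± 2.89, and these libraries of the 2 ligands overlapped. SMAD3 (11.6 ± 4.11), TGFBR1 (11.2 ± 2.02), TGFB2 (10.5 ± 2.15) and SMAD7 (9.70 ± 0.152) followed, each overlapping with the next in order. TGFBI (2.85 ± 0.257) and INHBA (0.786 ± 0.187) were the lowest and overlapped with no neighbor. The order differed most for TGFBI, which took the third place in bulk sh-NC tumors with 30.6 ± 3.43 and the second in bulk sh-B7-H3 (1) tumors with 48.0 ± 16.3, overlapping there with both TGFBR2 and TGFB1. INHBA was the lowest in all 5 groups.

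**Figure D1:**
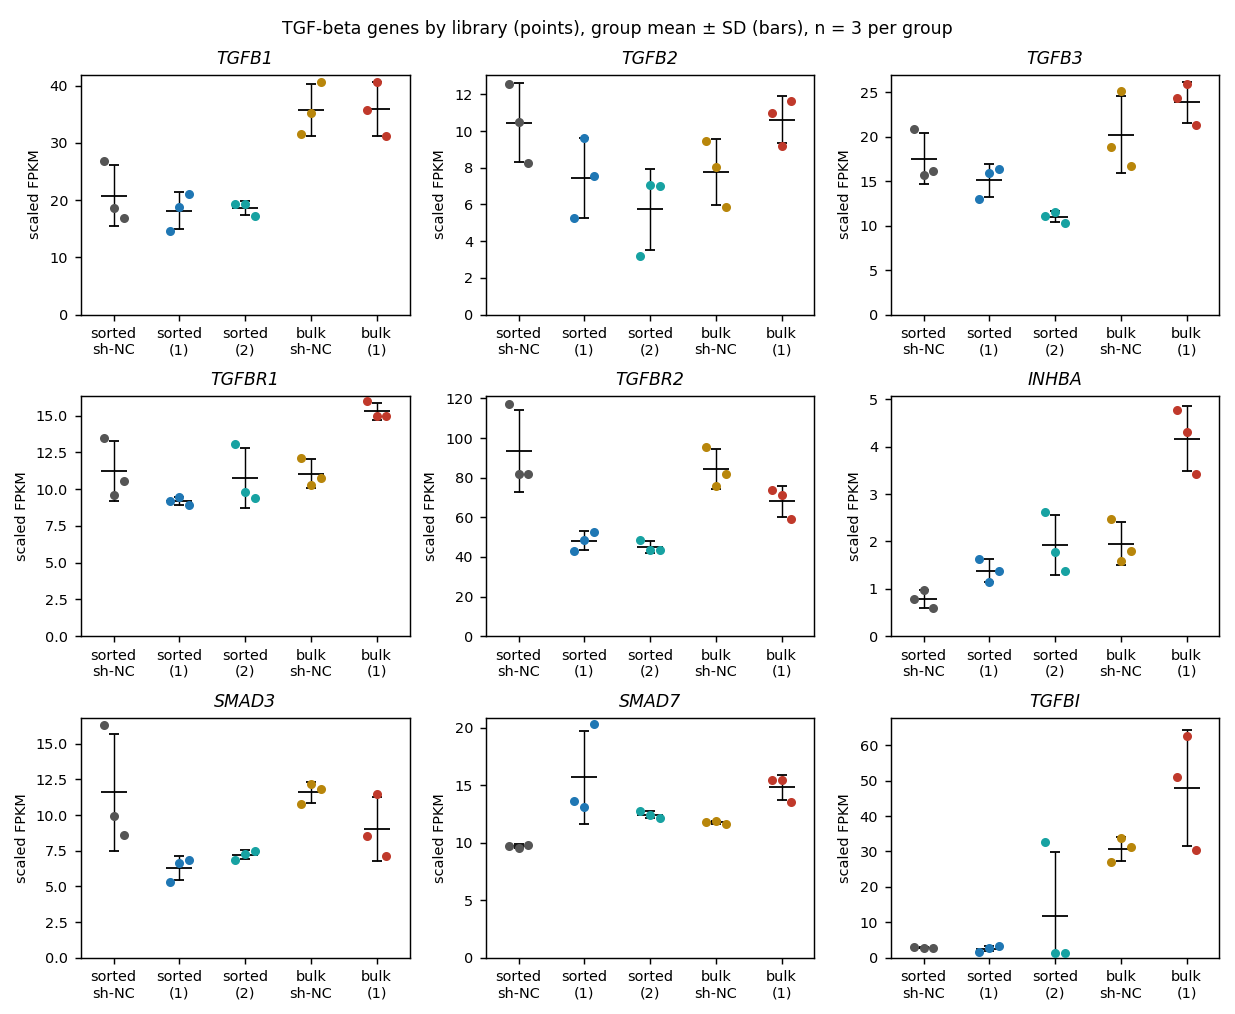
The level of each of the 9 genes (vertical axis, scaled FPKM from 0) in the 15 libraries, by group. Points are libraries and bars are the mean ± SD of 3 libraries. TGFBR2 was lower in all 6 sorted libraries labelled sh-B7-H3 than in the 3 sorted sh-NC libraries, and TGFBI was high in the 6 bulk libraries and in 1 sorted library.

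The first question was whether the shRNAs against B7-H3 changed the pathway in tumor cells themselves. In sorted cells TGFBR2 and SMAD3 fell when both shRNAs were set against sh-NC. SMAD7 was called higher, a call kept in 4 of 15 alternatives. INHBA was called higher from values near the filter level, and the 3 ligands, TGFBR1 and TGFBI did not pass the test. A gene was called when its adjusted p was below 0.05 (limma on log2 of scaled FPKM plus 1, Benjamini-Hochberg adjustment over all genes tested). Of the 9 genes 4 were called, 2 higher (INHBA and SMAD7) and 2 lower, where 20.5% of all 11424 genes tested were called, 12.6% higher and 7.92% lower. The median log2 fold change of the 9 was -0.15, and that of all genes tested was 0.01. With sh-B7-H3 (1) alone 1 of 9 was called, lower, against 13.4% of all genes (9.03% higher and 4.38% lower). With sh-B7-H3 (2) alone 3 of 9 were called, 1 higher and 2 lower, against 19.1% of all genes (11.7% higher and 7.44% lower). These 3 comparisons share the 3 sorted sh-NC libraries. All 9 genes passed the filter of at least 1 scaled FPKM in 3 libraries of the comparison, but INHBA did so in sorted cells only through the libraries labelled sh-B7-H3, where it was high, so its calls there are no support for a change. With no filter the calls of INHBA (adjusted p = 0.0545 by limma) and SMAD7 (adjusted p = 0.0757 by limma) for both shRNAs were lost.

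TGFBR2 was the most firmly changed member. It was 117, 81.7 and 81.6 scaled FPKM in sorted sh-NC cells, 42.9, 48.8 and 52.5 with sh-B7-H3 (1), and 48.7, 43.3 and 43.5 with sh-B7-H3 (2). The 3 controls lay above the 6 others, of which the highest was 52.5. Over both shRNAs the log2 fold change was -0.97 ± 0.13 (SE, adjusted p = 0.000452 by limma). It was -0.93 ± 0.18 for sh-B7-H3 (1) (adjusted p = 0.0107 by limma) and -1.02 ± 0.17 for sh-B7-H3 (2) (adjusted p = 0.00508 by limma). The call for both shRNAs and that for sh-B7-H3 (2) were kept whichever library was left out. That for sh-B7-H3 (1) was lost without its replicate 1 (adjusted p = 0.0623 by limma) or its replicate 2 (adjusted p = 0.0501 by limma). The same call was lost with FPKM as deposited (adjusted p = 0.0538 by limma). Between the shRNAs TGFBR2 differed by 0.09 ± 0.11 on the log2 scale (adjusted p = 0.676 by limma).

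SMAD3, which carries the signal to the nucleus (chr9:63646767-63757994, minus strand, mm10), was 16.3, 9.92 and 8.59 scaled FPKM in sorted sh-NC cells. It was 5.31, 6.62 and 6.86 with sh-B7-H3 (1) and 6.86, 7.30 and 7.49 with sh-B7-H3 (2). Libraries of both shRNAs did not overlap with the controls, of which replicate 1 was well above the other two. SMAD3 fell over both shRNAs by 0.66 ± 0.17 on the log2 scale (SE, adjusted p = 0.0214 by limma). The single shRNAs gave -0.75 ± 0.23 (adjusted p = 0.0682 by limma) and -0.57 ± 0.22 (adjusted p = 0.114 by limma), neither of which passed with all libraries. Without sh-NC replicate 3 both passed (adjusted p = 0.0258 and 0.0493 by limma), and sh-B7-H3 (1) also passed without sh-NC replicate 1 (adjusted p = 0.0487 by limma).

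INHBA, the subunit of activin A (chr13:16011851-16031621, plus strand, mm10), was 0.787, 0.973 and 0.599 scaled FPKM in sorted sh-NC cells. It was 1.63, 1.15 and 1.37 with sh-B7-H3 (1) and 2.61, 1.77 and 1.38 with sh-B7-H3 (2). The groups did not overlap, but all values were low, and the highest value came from the library rich in host markers. The log2 fold change over both shRNAs was 0.56 ± 0.16 (SE, adjusted p = 0.0341 by limma), in a test that INHBA entered only through the libraries where it was high. The call was lost without any one of the sh-NC libraries (adjusted p between 0.0643 and 0.113 by limma), without sh-B7-H3 (1) replicate 1 (adjusted p = 0.0547 by limma) or without sh-B7-H3 (2) replicate 2 (adjusted p = 0.0612 by limma). For sh-B7-H3 (2) alone the log2 fold change was 0.69 ± 0.18 (adjusted p = 0.0293 by limma), and the call was lost without sh-NC replicate 2 (adjusted p = 0.0628 by limma) or replicate 3 (adjusted p = 0.0803 by limma), or with no filter (adjusted p = 0.0661 by limma). For sh-B7-H3 (1) alone it was 0.42 ± 0.13 (adjusted p = 0.0833 by limma).

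The 250 bases before the RefSeq start of these 3 called genes are shown (build GRCm38.p6, the same coordinates as mm10). The bases can be read for sites of factors that act downstream of TGF-beta. The call of INHBA is no support for a change, and its window is shown for its letters only. Capitals mark matches, on either strand, to the SMAD-binding element GTCTAGAC, the CAGA box CAGACA, the AP-1 site TGANTCA, or the GC box GGGCGG. Each line runs 5′ to 3′ along the strand of the gene and ends at the base before the start, at chr9:116175364-116175613 (minus) for TGFBR2, chr9:63757995-63758244 (minus) for SMAD3 and chr13:16011601-16011850 (plus) for INHBA.
TGFBR2: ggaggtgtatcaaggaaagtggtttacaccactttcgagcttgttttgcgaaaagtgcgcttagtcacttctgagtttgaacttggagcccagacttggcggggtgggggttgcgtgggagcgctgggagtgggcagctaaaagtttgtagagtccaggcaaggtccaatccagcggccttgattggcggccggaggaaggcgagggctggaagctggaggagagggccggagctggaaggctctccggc
SMAD3: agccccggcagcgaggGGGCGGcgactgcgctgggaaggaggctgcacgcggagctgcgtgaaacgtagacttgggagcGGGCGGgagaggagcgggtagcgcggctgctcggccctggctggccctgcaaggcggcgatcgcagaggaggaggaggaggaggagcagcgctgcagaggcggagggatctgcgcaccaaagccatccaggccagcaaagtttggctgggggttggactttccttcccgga
INHBA: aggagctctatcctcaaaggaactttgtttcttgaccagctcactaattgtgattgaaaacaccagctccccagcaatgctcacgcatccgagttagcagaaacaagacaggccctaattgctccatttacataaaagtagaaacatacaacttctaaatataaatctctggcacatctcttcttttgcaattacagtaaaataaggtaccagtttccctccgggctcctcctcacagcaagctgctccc
The SMAD3 window held 2 GC boxes, and the windows of TGFBR2 and INHBA held no match to any of the 4 motifs. Among 32851 promoters of the same length 0.167% held the SMAD-binding element, 17.1% a CAGA box, 6.75% an AP-1 site and 32.7% a GC box. Among the other members with an entry, the TGFB1 window held 5 GC boxes and the TGFBI window held 1. The TGFB2 window held 1 CAGA box. Of the windows before 2 alternative starts of TGFBR1, 1 held 2 GC boxes and the other 1 CAGA box. A match describes the letters only and no match says nothing of a factor.

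SMAD7, the inhibitory SMAD, was 9.74, 9.54 and 9.83 scaled FPKM in sorted sh-NC cells, a spread of 0.152 (SD). It was 13.6, 13.1 and 20.3 with sh-B7-H3 (1) and 12.7, 12.4 and 12.2 with sh-B7-H3 (2). All 6 libraries labelled sh-B7-H3 were above the controls, and replicate 3 of sh-B7-H3 (1) was far above the other 5. SMAD7 rose over both shRNAs by a log2 fold change of 0.47 ± 0.15 (SE, adjusted p = 0.046 by limma). The call was lost when any library other than sh-B7-H3 (1) replicate 3 was left out (adjusted p between 0.0504 and 0.143 by limma). It was also lost with quantile normalization (adjusted p = 0.0739 by limma) and with a replicate block (adjusted p = 0.0741 by limma). The single shRNAs gave 0.61 ± 0.18 (adjusted p = 0.0575 by limma) and 0.33 ± 0.11 (adjusted p = 0.0753 by limma), and the latter passed without sh-NC replicate 1 (adjusted p = 0.0388 by limma).

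Of the ligands, TGFB3 passed the test with 1 shRNA. It was 20.9, 15.7 and 16.1 scaled FPKM in sorted sh-NC cells, 13.02, 15.96 and 16.4 with sh-B7-H3 (1), and 11.1, 11.6 and 10.3 with sh-B7-H3 (2) (chr12:86056745-86079041, minus strand, mm10). It fell by 0.62 ± 0.14 on the log2 scale with sh-B7-H3 (2) (SE, adjusted p = 0.0204 by limma). This call was lost without any one of the 3 sh-B7-H3 (2) libraries (adjusted p between 0.0625 and 0.11 by limma). The same call was lost with FPKM as deposited (adjusted p = 0.295 by limma). With sh-B7-H3 (1) the log2 fold change was -0.20 ± 0.16 (adjusted p = 0.52 by limma), and the difference between the shRNAs was 0.42 ± 0.11 (adjusted p = 0.0824 by limma). TGFB2 was 12.6, 10.5 and 8.27 scaled FPKM with sh-NC, 5.24, 9.61 and 7.53 with sh-B7-H3 (1), and 3.18, 7.03 and 7.01 with sh-B7-H3 (2) (chr1:186622792-186705989, minus strand, mm10). The sh-B7-H3 (2) libraries lay below the controls and the sh-B7-H3 (1) libraries overlapped with them. Its log2 fold change over both shRNAs was -0.63 ± 0.25 (adjusted p = 0.11 by limma). TGFB1, the most abundant ligand in every library, was 26.8, 18.6 and 16.9 scaled FPKM with sh-NC, 14.7, 18.7 and 21.1 with sh-B7-H3 (1), and 19.3, 19.3 and 17.2 with sh-B7-H3 (2) (chr7:25687002-25705077, plus strand, mm10). The 3 groups overlapped, and the log2 fold change over both shRNAs was -0.15 ± 0.15 (adjusted p = 0.541 by limma).

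TGFBR1, the signaling receptor (chr4:47353222-47414931, plus strand, mm10), was 13.5, 9.60 and 10.6 scaled FPKM with sh-NC. It was 9.16, 9.49 and 8.93 with sh-B7-H3 (1) and 13.1, 9.82 and 9.38 with sh-B7-H3 (2). The sh-B7-H3 (1) libraries lay just below the controls, and the value of 13.1 came from the library rich in host markers. Over both shRNAs the log2 fold change was -0.15 ± 0.14 (adjusted p = 0.488 by limma).

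**Figure D2:**
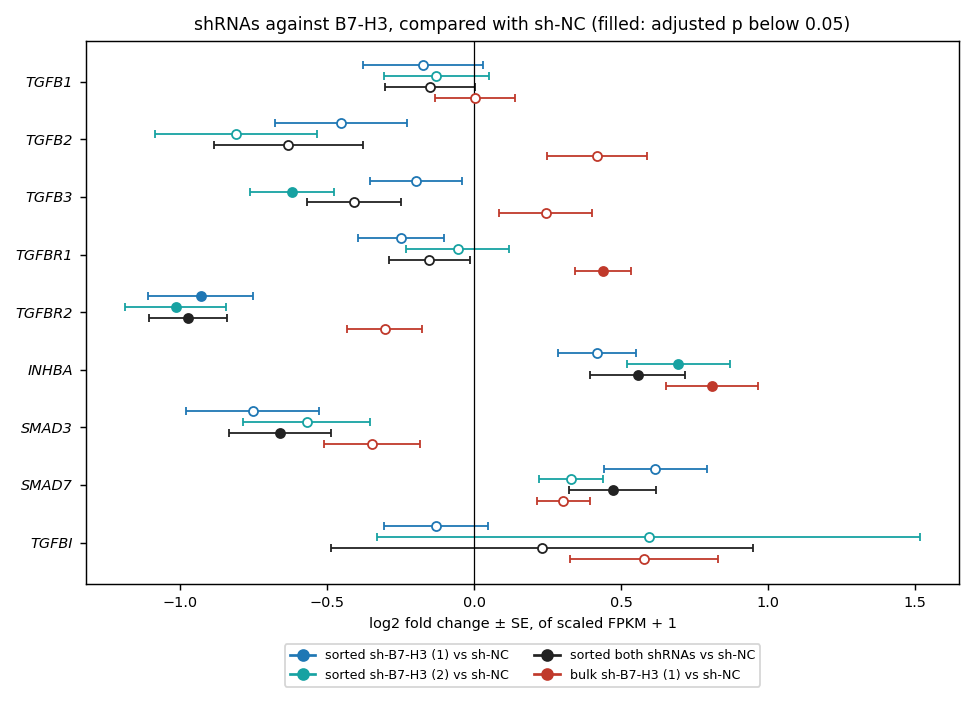
The log2 fold change of scaled FPKM plus 1 against sh-NC (horizontal axis) with its SE for each gene, in sorted cells with each shRNA and with both and in bulk tumors with sh-B7-H3 (1). Filled points passed an adjusted p below 0.05. TGFBR2 passed in the 3 sorted comparisons (-0.93, -1.02 and -0.97) and was at -0.30 in bulk, where it did not pass, and the TGFBI bar for sh-B7-H3 (2) was wide (0.59 ± 0.92).

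TGFBI varied among sorted libraries with a single library. It was 3.13, 2.63 and 2.79 scaled FPKM in sorted sh-NC cells and 1.74, 2.64 and 3.33 with sh-B7-H3 (1) (chr13:56609523-56639562, plus strand, mm10). With sh-B7-H3 (2) it was 32.6, 1.44 and 1.37, and the value of 32.6 is that of the library rich in host markers. With all libraries included, this shRNA gave a log2 fold change of 0.59 ± 0.92 (SE, adjusted p = 0.711 by limma). Without that library it turned to -0.67 ± 0.13 and passed (adjusted p = 0.0195 by limma). The 3 genes whose log2 level was most like that of TGFBI over the 15 libraries were WFDC17 (r = 0.993), DOCK2 (r = 0.992) and CYBB (r = 0.991), among 11604 genes compared. DOCK2 and CYBB are known from leukocytes, and the libraries share their bulk or sorted origin. As the plot of TGFBI against leukocyte markers shows, the 15 libraries fell into 2 sets with no library between them. The part of host cells in the level of TGFBI was not tested, and in bulk RNA fewer cells of a type and less RNA per cell cannot be told apart.

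**Figure D3:**
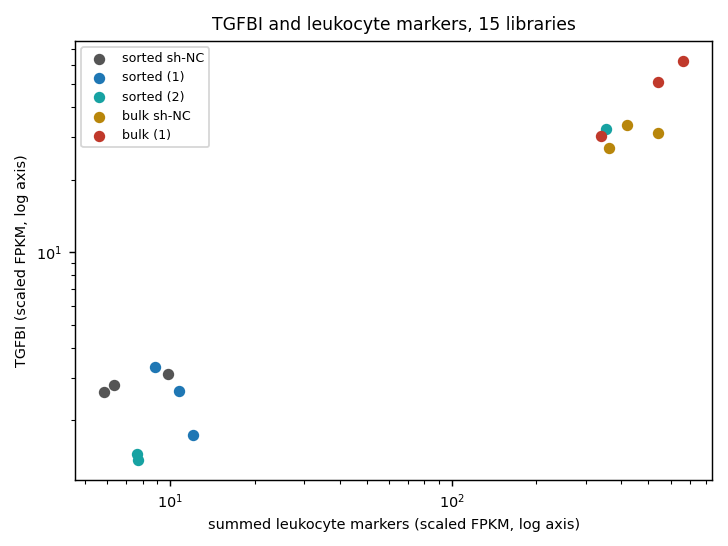
TGFBI (vertical axis, scaled FPKM, log scale) against the sum of 10 leukocyte markers (horizontal axis, scaled FPKM, log scale), with 1 point for each of the 15 libraries. Of the sorted libraries 8 had TGFBI between 1.37 and 3.33 with a marker sum of at most 12.03, and sorted sh-B7-H3 (2) replicate 1 (TGFBI 32.6, marker sum 353) lay beside the 6 bulk libraries.

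The balance of the receptors was set out after the values of TGFBR1 and TGFBR2 had been seen. TGFBR2 alone already lay below the controls without overlap in sorted cells and in bulk. The p-values of the ratio are thus no further support for a change. The ratio of TGFBR2 to TGFBR1, which does not depend on library scaling, was 8.71, 8.51 and 7.72 in sorted sh-NC cells. It was 4.69, 5.14 and 5.88 with sh-B7-H3 (1) and 3.73, 4.41 and 4.64 with sh-B7-H3 (2). The mean was 8.31 ± 0.527 in the 3 sh-NC libraries and 4.75 ± 0.722 (SD) in the 6 others, without overlap. An exact permutation test (two-sided) gave p = 0.0119, the lowest p of 6 libraries against 3. It takes the 6 as independent, although those with the same replicate number varied together. In bulk the ratio was 7.86, 7.41 and 7.60 with sh-NC and 4.61, 4.78 and 3.96 with sh-B7-H3 (1). The bulk groups did not overlap either (p = 0.1 by the same exact test, the lowest p of 3 against 3). In bulk the lower ratio went with a higher TGFBR1 (log2 fold change 0.44) and a lower TGFBR2 (-0.30), of which only TGFBR1 was called. In sorted cells the lower ratio went with a lower TGFBR2 for both shRNAs. With sh-B7-H3 (1) TGFBR1 also lay below the controls there, without being called.

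TGFB1 made up 44.5%, 41.6% and 41.0% of the summed FPKM of the 3 ligands in sorted sh-NC cells. The share was 44.5%, 42.3% and 46.8% with sh-B7-H3 (1) and 57.4%, 50.9% and 49.7% with sh-B7-H3 (2). The sh-B7-H3 (2) libraries lay above all sh-NC libraries, by 10.4 percentage points in the mean (p = 0.1 by the exact permutation test, its lowest). Over both shRNAs the difference was 6.29 percentage points (exact two-sided permutation test, p = 0.0833). Without sh-B7-H3 (1) replicate 2 it was 7.56 percentage points (exact two-sided permutation test, p = 0.0357). The lowest difference with a library left out was 4.53 percentage points, without the library rich in host markers, whose share was 57.4%.

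**Figure D4:**
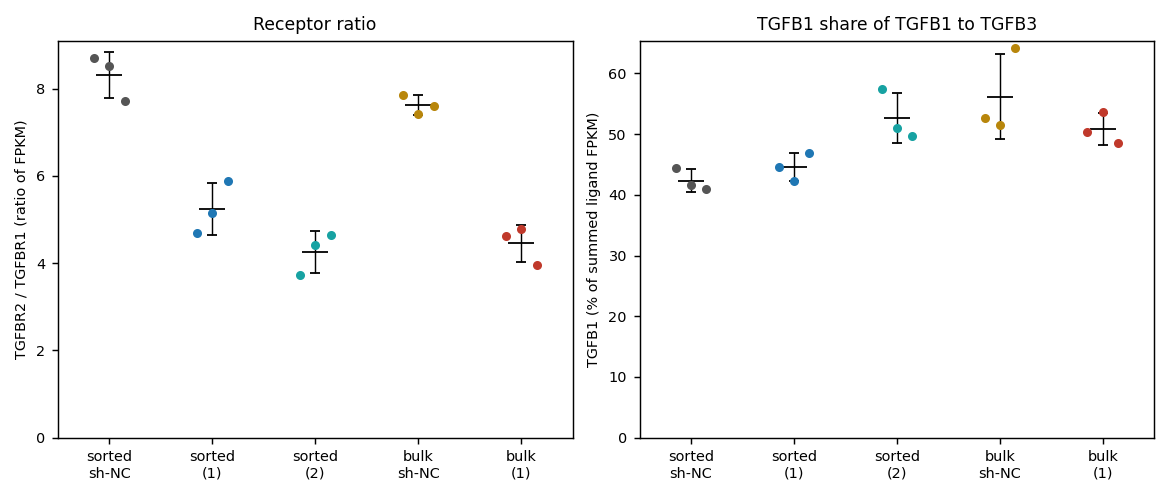
Left, the ratio of TGFBR2 to TGFBR1 FPKM (vertical axis, from 0) in the 15 libraries by group. Right, the percentage of TGFB1 in the summed FPKM of TGFB1, TGFB2 and TGFB3. Points are libraries and bars the mean ± SD of 3 libraries. The ratio lay between 7.41 and 8.71 in the 6 sh-NC libraries and between 3.73 and 5.88 in the 9 libraries with an shRNA against B7-H3.

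The shRNAs were also set against each other. None of the 9 genes was called by limma between them, where 3.4% of all genes were (1.76% higher and 1.64% lower with sh-B7-H3 (1)). At an unadjusted p below 0.05, 1 of the 9 passed, where 22% of all genes did: TGFB3 (unadjusted p = 0.00543 by limma). Libraries with the same replicate number varied together between these groups. With a replicate block TGFB3 was called (log2 difference 0.42, adjusted p = 0.0435 by limma), and 1864 of all genes in place of 382. CD276 was lower with sh-B7-H3 (1), with a log2 difference of -1.16 ± 0.20 (adjusted p = 0.0277 by limma). A p that misses the threshold does not show that the shRNAs act alike.

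In bulk tumors the question was the same for the whole tissue. INHBA and TGFBR1 were called with sh-B7-H3 (1), both higher. These 2 of 9 genes are a share near the 21.4% of all genes called (12.8% higher and 8.52% lower). The median log2 fold change of the 9 was 0.30 and that of all genes was 0.02. INHBA was 2.48, 1.60 and 1.80 scaled FPKM with sh-NC and 4.78, 4.30 and 3.43 with the shRNA, without overlap. The log2 fold change of INHBA was 0.81 ± 0.16 (SE, adjusted p = 0.016 by limma). TGFBR1 was 12.1, 10.3 and 10.7 with sh-NC and 15.97, 14.95 and 14.9 with sh-B7-H3 (1), also without overlap, and its log2 fold change was 0.44 ± 0.09 (adjusted p = 0.0223 by limma). Both calls were lost without sh-NC replicate 2, sh-NC replicate 3 or sh-B7-H3 (1) replicate 1 (adjusted p between 0.0577 and 0.116 by limma). With FPKM as deposited TGFBR1 also lost its call (adjusted p = 0.561 by limma).

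The other 7 genes did not pass in bulk. TGFBR2 was 95.5, 76.0 and 81.7 scaled FPKM with sh-NC and 73.7, 71.5 and 59.2 with sh-B7-H3 (1). The groups did not overlap, with a log2 fold change of -0.30 ± 0.13 (SE, adjusted p = 0.124 by limma). SMAD7 was 11.8, 11.9 and 11.7 with sh-NC and 15.5, 15.4 and 13.5 with sh-B7-H3 (1), with a log2 fold change of 0.30 ± 0.09 (adjusted p = 0.0522 by limma). These groups did not overlap either, and the share of all genes without overlap was not counted. SMAD3 was 10.8, 12.2 and 11.9 with sh-NC and 8.53, 11.5 and 7.11 with sh-B7-H3 (1) (log2 fold change -0.35 ± 0.16, adjusted p = 0.157 by limma). TGFBI was 27.0, 33.8 and 31.1 with sh-NC and 51.1, 62.5 and 30.3 with sh-B7-H3 (1), overlapping (log2 fold change 0.58 ± 0.25, adjusted p = 0.135 by limma). Some calls appeared when a library of sh-B7-H3 (1) was left out. SMAD7 (adjusted p = 0.043 by limma) and TGFBI (adjusted p = 0.0123 by limma) passed without its replicate 3, and SMAD3 (adjusted p = 0.0184 by limma) without its replicate 2. The ligands overlapped between the groups, with log2 fold changes of 0.00 ± 0.13 for TGFB1, 0.42 ± 0.17 for TGFB2 and 0.24 ± 0.16 for TGFB3.

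Markers of host cells differed between the bulk groups as well. The summed fibroblast markers were 144 to 260 scaled FPKM in the sh-NC tumors and 430 to 861 in the sh-B7-H3 (1) tumors. The summed skeletal muscle markers were 5.53 to 29.5 and 56.9 to 964, and the T cell markers 2.76 to 3.01 and 6.76 to 20.4. The leukocyte sums overlapped (362 to 539 against 339 to 665). The part of these cells in the bulk changes was not tested.

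Whether sh-B7-H3 (1) acted differently in sorted cells and in bulk tumors was asked with an interaction term. None of the 9 genes was called by limma, where 0.464% of all genes were (0.249% higher and 0.216% lower in sorted cells than in bulk). At an unadjusted p below 0.05, 3 of the 9 passed (TGFBR1, TGFB2 and TGFBR2), where 14.6% of all genes did. TGFBR1 was lower with the shRNA in all 3 sorted libraries and higher in all 3 bulk libraries, and its effect differed by -0.69 ± 0.17 on the log2 scale (SE, unadjusted p = 0.00175, adjusted p = 0.115 by limma). The difference was -0.87 ± 0.30 for TGFB2 (adjusted p = 0.263 by limma) and -0.63 ± 0.23 for TGFBR2 (adjusted p = 0.274 by limma).

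The material itself was compared within each shRNA. In sh-NC libraries TGFBI, TGFB1 and INHBA were higher in bulk than in sorted cells, 3 of 9 genes, where 16.9% of all genes were called (10.4% higher and 6.48% lower in bulk). INHBA passed the filter there only through the bulk libraries. The log2 difference was 3.03 ± 0.13 for TGFBI (SE, adjusted p = 5.84e-06 by limma), and the call was kept under every alternative run. TGFB1 was 31.5, 35.3 and 40.6 scaled FPKM in bulk sh-NC tumors, above the 16.9 to 26.8 of sorted cells, with a log2 difference of 0.78 ± 0.19 (adjusted p = 0.0305 by limma). This call was lost without any one of the libraries other than sorted sh-NC replicate 1 (adjusted p between 0.0646 and 0.154 by limma). INHBA differed by 0.72 ± 0.15 (adjusted p = 0.017 by limma), and was not tested without any one of the bulk libraries, when 2 libraries reached the filter level and 1 gene, TGFBI, was called.

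With sh-B7-H3 (1), 6 of 9 genes were higher in bulk, where 38.2% of all genes were called (21.1% higher and 17.1% lower). They were TGFBI (log2 difference 3.74 ± 0.27, SE), INHBA (1.11 ± 0.14), TGFB1 (0.95 ± 0.16), TGFBR1 (0.68 ± 0.09), TGFB3 (0.63 ± 0.13) and TGFBR2 (0.49 ± 0.13), with adjusted p from 0.000114 to 0.0219 by limma. TGFB1 was 35.8, 40.7 and 31.2 scaled FPKM in these bulk tumors and TGFB3 was 24.4, 25.9 and 21.3, each above all 3 sorted libraries. TGFBR2 lost its call without bulk replicate 1 (adjusted p = 0.0959 by limma), sorted replicate 1 (adjusted p = 0.0661 by limma) or sorted replicate 2 (adjusted p = 0.0532 by limma). SMAD3 passed without bulk replicate 3 (adjusted p = 0.0305 by limma) and TGFB2 without sorted replicate 2 (adjusted p = 0.0354 by limma). SMAD7 was the member with the lowest difference (-0.05 ± 0.17, adjusted p = 0.817 by limma). Bulk and sorted libraries differ in the cells they hold and in how the cells were handled, and these cannot be told apart.

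The members varied together over the 15 libraries in pairs, given here as a description over libraries that share group and material. TGFBR2 and SMAD3 had r = 0.879, TGFB1 and TGFBI 0.843, TGFB1 and TGFB3 0.796, and INHBA and TGFBI 0.784. SMAD7 ran against TGFBR2 with r = -0.468. Outside the members, the genes most like TGFBR2 were SHROOM2 (r = 0.960), NCAM1 (0.955) and FN1 (0.950), and those most like SMAD3 were FN1 (0.959), ESYT1 (0.958) and DENND5A (0.948). INHBA had RASSF4 (0.960) and PDGFA (0.927) among its nearest, and TGFBR1 most like ANKRD44 (0.955), TMEM170B (0.874) and COL7A1 (0.864). TGFB1 was most like SIPA1 (0.972), PTPN1 (0.969) and TBC1D10B (0.966), TGFB2 most like PDK2 (0.893), NCOR1 (0.869) and NF2 (0.868), and TGFB3 most like MXRA8 (0.932), MTSS1L (0.928) and 2700081O15RIK (0.928). SMAD7 had the least close neighbors, N4BP3 (0.865), TRPM4 (0.860) and ABCC3 (0.851).

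The rest of the pathway was described through 59 further genes grouped by role, of which 47 were tested in sorted cells with both shRNAs. In that comparison ITGB6 rose, ID3 and LTBP2 were called higher, and FN1, TGFB1I1 and ACTA2 fell, and 17 of the 47 were called, 12 higher and 5 lower, where 20.5% of all genes were (12.6% higher and 7.92% lower). Of the 17, the 4 genes LTBP2, LTBP4, FST and ID3 entered the test only through the libraries labelled sh-B7-H3, where they were high, so they had to differ and their calls are no support for a change. With no filter 14 were called, 13 of them among the 17, and the calls over all genes went from 2344 to 2413. The median log2 fold change of the tested genes was 0.03. Without the library rich in host markers 15 of 46 were called, 10 higher and 5 lower, all of them among the 17. The calls over all genes then went from 2344 to 1939. FURIN (adjusted p = 0.0751 by limma) and ID2 (adjusted p = 0.0557 by limma) lost their calls. With sh-B7-H3 (1) alone 15 of 45 were called, 8 higher and 7 lower, where 13.4% of all genes were, and 4 of the 15 entered through 1 group only. With sh-B7-H3 (2) alone 21 of 47 were called, 14 higher and 7 lower, where 19.1% of all genes were, and 5 of the 21 entered through 1 group only. It was 9 of 42 without the library rich in host markers, of which 7 were among the 21, and the calls over all genes went from 2150 to 1357. The share of all genes called in these and the further refits below is not given here. Names given below beyond the extremes in each comparison were added after their values were seen, to account for small counts.

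Of the genes that hold or release latent ligand, 4 of 9 tested were called, all higher, where 20.5% of all genes were called (12.6% higher). LTBP2 and LTBP4 among them entered the test only through the libraries where they were high. ITGB6, the beta subunit of the integrin that frees TGF-beta from its latent complex, was 1.62, 1.65 and 1.11 scaled FPKM in sorted sh-NC cells. It was 14.7, 11.0 and 9.46 with sh-B7-H3 (1) and 11.5, 10.8 and 10.1 with sh-B7-H3 (2), far above the controls in all 6. ITGB6 rose over both shRNAs by a log2 fold change of 2.31 ± 0.14 (SE, adjusted p = 1.59e-06 by limma). LTBP2, a latent TGF-beta binding protein, was 0.649, 0.430 and 0.406 with sh-NC, 1.47, 1.50 and 1.62 with sh-B7-H3 (1), and 3.83, 2.77 and 3.10 with sh-B7-H3 (2). Its log2 fold change over both shRNAs was 1.13 ± 0.23 (adjusted p = 0.00506 by limma, and 0.0155 with no filter). Between the shRNAs the log2 difference was -0.73 ± 0.12 (adjusted p = 0.0245 by limma, and 0.0711 with no filter). LTBP4 and the protease gene FURIN, which cleaves the precursor of the ligand, were the other two, with log2 fold changes of 0.70 ± 0.22 and 0.49 ± 0.15, and neither passed with no filter (adjusted p = 0.0816 and 0.0613 by limma).

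Of the other ligands and antagonists 2 of 4 tested were called higher, where 12.6% of all genes were. They were INHBB (log2 fold change 0.75 ± 0.13, SE), a further activin subunit, and FST (0.78 ± 0.12), which binds and blocks activin. FST was 0.385, 0.266 and 0.454 scaled FPKM with sh-NC, below the filter level in each, and entered through the other libraries (adjusted p = 0.000748 by limma with no filter). GDF11, a related ligand, was 2.48, 2.49 and 2.43 scaled FPKM with sh-NC, 0.584, 0.983 and 0.919 with sh-B7-H3 (1), and 0.688, 4.28 and 3.72 with sh-B7-H3 (2), the latter on both sides of sh-NC. It fell by 0.93 ± 0.12 on the log2 scale with sh-B7-H3 (1) (adjusted p = 0.00167 by limma), where it entered only through sh-NC. With sh-B7-H3 (2) it was 0.00 ± 0.39 (adjusted p = 0.996 by limma), and 0.52 ± 0.13 without the library rich in host markers (adjusted p = 0.0465 by limma). Of the other receptors 1 of 4 was called, where 20.5% of all genes were. It was ACVR1B, an activin receptor, at 0.79 ± 0.16. Of the SMADs and their regulators 2 of 12 were called, both higher, the ubiquitin ligase SMURF1 (0.69 ± 0.15) and the corepressor TGIF1 (0.56 ± 0.10), a share near the 20.5% of all genes.

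Targets moved in both directions, with 3 of 18 higher and 5 lower, where 12.6% of all genes were higher and 7.92% lower. FN1, which encodes the matrix protein fibronectin, was 2836, 1212 and 935 scaled FPKM in sorted sh-NC cells, 337, 502 and 513 with sh-B7-H3 (1), and 612, 534 and 536 with sh-B7-H3 (2). No library labelled sh-B7-H3 reached the controls, and the log2 fold change was -1.57 ± 0.31 (SE, adjusted p = 0.00526 by limma). TGFB1I1, a focal adhesion protein induced by TGF-beta, and ACTA2, smooth muscle actin, gave -0.98 ± 0.17 (adjusted p = 0.00229 by limma) and -0.83 ± 0.23 (adjusted p = 0.0269 by limma). CTGF (-0.77 ± 0.14), a matricellular protein, and TPM1 (-0.73 ± 0.12), a tropomyosin, were the others that fell. ID3, a partner of basic helix-loop-helix factors that the related BMP ligands induce, was 0.270, 0.559 and 0.917 with sh-NC, 5.47, 3.25 and 3.09 with sh-B7-H3 (1), and 7.52, 3.61 and 4.14 with sh-B7-H3 (2). The log2 fold change of ID3 was 1.77 ± 0.23 (adjusted p = 0.000365 by limma, and 0.00226 with no filter), in a test it entered only through the libraries where it was high. ID2 (0.53 ± 0.16) and KLF10 (0.61 ± 0.11) also rose. ACTA2 (adjusted p = 0.0582 by limma) and ID2 (adjusted p = 0.0621 by limma) did not pass with no filter.

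Some targets were called with 1 shRNA. CDKN2B, a cell cycle inhibitor, was 0.0212, 0.176 and 0.415 scaled FPKM in sorted sh-NC cells, 0.0609, 0.143 and 0.0207 with sh-B7-H3 (1), and 1.94, 6.72 and 7.03 with sh-B7-H3 (2). LOX, which crosslinks collagen, was 2.42, 1.68 and 2.70 with sh-NC, 1.54, 1.50 and 2.13 with sh-B7-H3 (1), and 4.02, 8.85 and 8.17 with sh-B7-H3 (2). Between the shRNAs 5 of 46 pathway genes were called, where 3.4% of all genes were, and none of the 5 with no filter (adjusted p between 0.071 and 0.0875 by limma). They include CDKN2B (-2.40 ± 0.36, adjusted p = 0.0183 by limma), LOX (-1.50 ± 0.25, adjusted p = 0.0255 by limma) and ACVR2A (0.47 ± 0.09, adjusted p = 0.038 by limma). CDKN2B entered this test only through the sh-B7-H3 (2) libraries, where it was high, as it did for sh-B7-H3 (2) against sh-NC. Its calls are thus no support for a change. Without the library rich in host markers 9 of 45 were called, 4 of them among the 5, and the calls over all genes went from 382 to 890. CDKN2B, LTBP2, LTBP4, FST and ID3 were then not tested for sh-B7-H3 (2) against sh-NC, since 2 libraries at or above 1 scaled FPKM do not meet the filter.

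In bulk tumors 17 of 51 pathway genes were called with sh-B7-H3 (1), 13 higher and 4 lower, where 21.4% of all genes were (12.8% higher and 8.52% lower). Of the 17, FST and CDKN2B entered only through the sh-B7-H3 (1) libraries, where they were high, and 11 of the 17 were called with no filter. LTBP2 was 0.935, 1.82 and 0.634 scaled FPKM with sh-NC and 7.92, 7.87 and 4.17 with the shRNA, a log2 fold change of 1.84 ± 0.28 (SE, adjusted p = 0.00744 by limma). ITGB6 was 2.63, 1.57 and 1.08 with sh-NC and 9.48, 6.76 and 7.26 with the shRNA (1.70 ± 0.22, adjusted p = 0.00478 by limma). LOX was 2.15, 1.90 and 2.37 with sh-NC and 7.26, 9.89 and 7.22 with the shRNA (1.53 ± 0.14, adjusted p = 0.00245 by limma). None of these 3 overlapped between the groups, where an exact permutation test of 3 libraries against 3 has a lowest p of 0.1. The share of all genes without overlap was not counted. The cell cycle inhibitor CDKN1A fell by 0.94 ± 0.20 and FN1 by 0.64 ± 0.16 on the log2 scale, of which FN1 did not pass with no filter (adjusted p = 0.0886 by limma). Of the SMADs and their regulators 4 of 12 rose, SMURF1, SMURF2, SKIL and PMEPA1, with log2 fold changes from 0.40 to 0.79, and SMURF1 and SMURF2 did not pass with no filter (adjusted p = 0.0504 and 0.0562 by limma). All 4 are known to restrain SMAD signaling.

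**Figure D5:**
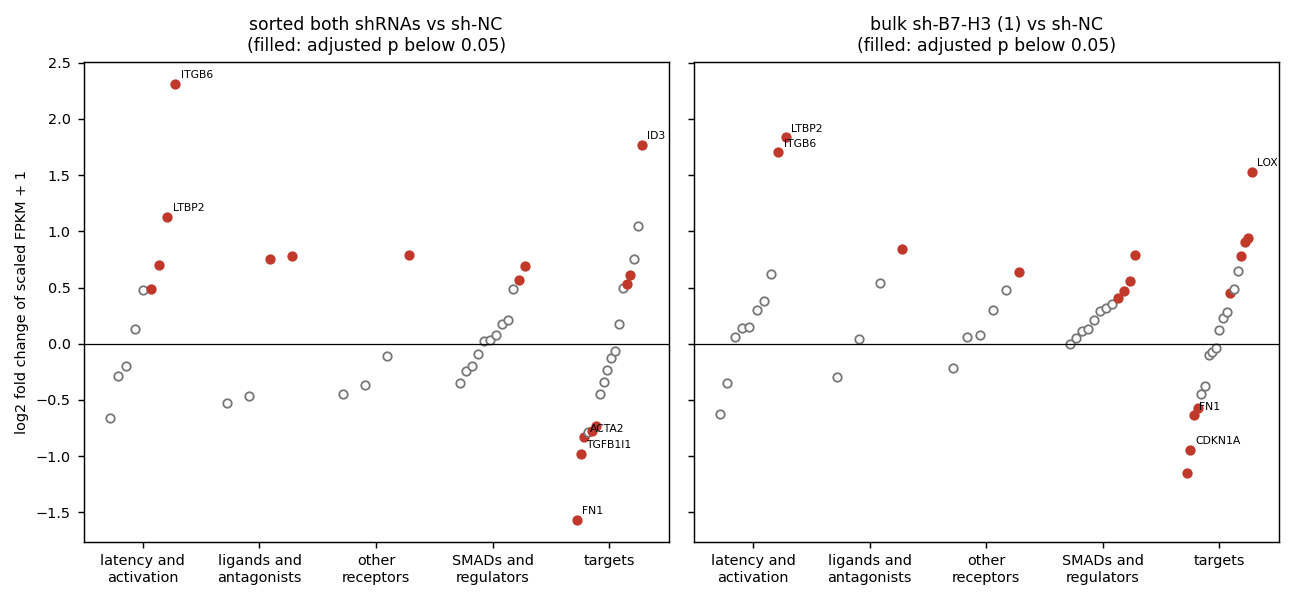
The log2 fold change of scaled FPKM plus 1 (vertical axis) of each tested pathway gene outside the 9, by role, against sh-NC, for both shRNAs in sorted cells (left) and for sh-B7-H3 (1) in bulk tumors (right). Each point is a gene and filled points passed an adjusted p below 0.05. ITGB6 (2.31 sorted, 1.70 bulk) and LTBP2 (1.13 and 1.84) were above 0 in both panels, and FN1 (-1.57 and -0.64) was below.

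Between bulk and sorted sh-NC libraries 16 of 48 pathway genes were called, 13 higher and 3 lower in bulk, where 16.9% of all genes were. Of the 16, 6 entered only through the bulk libraries, where they were high, among them NRROS and ENG, which thus had to differ. The highest log2 differences were those of NRROS (2.70 ± 0.15, SE), which holds latent TGF-beta on macrophages and microglia, TAGLN (2.44 ± 0.22), a smooth muscle protein, and ENG (2.19 ± 0.16), an endothelial coreceptor. JUNB (-1.29 ± 0.17), an AP-1 subunit, ACVR2A (-0.51 ± 0.14) and SKIL (-0.44 ± 0.12) were lower. With sh-B7-H3 (1), 29 of 51 were called, 26 higher and 3 lower in bulk, where 38.2% of all genes were, and 5 of the 29 entered only through bulk, NRROS and ENG again among them. ENG (2.84 ± 0.20), TAGLN (2.63 ± 0.21) and NRROS (2.37 ± 0.25) were again at the top, and JUNB (-1.41 ± 0.17) and TGIF1 (-0.48 ± 0.12) were among those lower. NRROS was at or below 0.0678 scaled FPKM in 8 sorted libraries, at 2.57 in sorted sh-B7-H3 (2) replicate 1, the library rich in host markers, and at 2.87 to 7.20 in bulk.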

How the data were processed

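RNA-seq libraries of 3 replicates in each of 5 groups were taken from the sample labels. The authors deposited 1 FPKM value per gene and library for 24917 entries, and a further table that holds log2 values, which the authors made as log2(FPKM + 1) of some of these genes and which was used only as a check (largest difference 8.91e-08 over 999 genes). The labels name mm10. The aligner and annotation are not given in the sources used here, and the paper and the labels name different library kits. Symbols turned into dates (26 entries) were left out.

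FPKM was divided by median-ratio factors (0.650 to 1.18) computed on 9872 genes (1 FPKM or more in all libraries), as 1 entry, MIR6236, took 6.01% to 79.7% of the FPKM total. After adding a pseudocount of 1, log2 values were fitted with limma 3.58.1 (R 4.3.3, mean-variance trend), over genes with at least 1 scaled FPKM in 3 libraries. P-values were adjusted over all genes tested. Fold changes are on this scale and understate changes of low genes. For single values an exact permutation test (two-sided) was used. The fit was tested on simulated data. Other software was Python 3.11.15, scipy 1.17.1, pandas 2.3.3, numpy 2.4.6 and matplotlib 3.10.9.

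The members and lists were chosen with earlier results of these data known. Named genes were the 9 members, CD276, the 3 largest and 3 smallest changes among called pathway genes in each comparison (mean level 1 scaled FPKM or more), and the 3 genes most like each member. Promoter bases are from RefSeq (7 of 9 members matched) and positions from GENCODE M21. Alternatives were FPKM as deposited, quantile normalization, no filter, a pseudocount of 0.1, replicate blocks, all 5 groups fitted together, and leaving out each library. The counts of pathway genes without the library rich in host markers or with no filter were added after seeing the data. A pathway gene and a motif that these rules cover are not reported here.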

Additional observations from a re-analysis of the deposited data

Results flagged for a closer look

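Among the 6 sorted libraries labelled sh-B7-H3, 11 measures (the 9 genes, the TGFB1 share and the receptor ratio) were screened for a library far from the others, and 3 were found, where chance finds about 5% of groups. TGFBI was 32.6 scaled FPKM in sorted sh-B7-H3 (2) replicate 1, against 1.37 to 3.33 in the other 5. TGFBR1 was 13.1 scaled FPKM in that same library, against 8.93 to 9.82 in the other 5. The summed leukocyte markers of this library were 353 scaled FPKM, and their part in either value was not tested. SMAD7 was 20.3 scaled FPKM in sorted sh-B7-H3 (1) replicate 3, against 12.2 to 13.6 in the other 5, and the leukocyte sum of that library was 8.83.

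The effect of sh-B7-H3 (1) differed between sorted cells and bulk tumors for LOX, by -1.79 ± 0.22 on the log2 scale (SE, adjusted p = 0.00854 by limma), and for CDKN2B, by -1.09 ± 0.20 (adjusted p = 0.0451 by limma). CDKN2B was below 1 scaled FPKM in all libraries of this comparison other than bulk sh-B7-H3 (1), and entered the test only through these, where it was high. For TGFBR1, every sorted library with the shRNA was below its controls and every bulk library above, and the effects differed by -0.69 on the log2 scale, which did not pass the adjusted test (adjusted p = 0.115 by limma).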

How the results depend on the processing

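Of 936 refits of single members, 851 kept their side of the threshold and either kept their direction or moved by less than the SE of the main fit. TGFBI with sh-B7-H3 (2), at 0.59 on the log2 scale, reversed to -0.67 without replicate 1 of that group, and ran from -0.67 to 1.24 with each library left out. The number of members called was 1 for sorted sh-B7-H3 (1), and 2 with FPKM as deposited or quantile normalization, 3 with all 5 groups together and 0 to 2 with each library left out. With FPKM as deposited the 2 were INHBA (adjusted p = 0.0372 by limma) and SMAD7 (adjusted p = 0.0294 by limma). TGFBR2 then lost its call (adjusted p = 0.0538 by limma). For sorted sh-B7-H3 (2) the number called was 3, and 5 with all groups together and 1 to 4 with each library left out. For both shRNAs it was 4, and 2 with quantile normalization or no filter and 2 to 4 with each library left out. For bulk it was 2, and 1 with FPKM as deposited and 0 to 4 with each library left out. For bulk against sorted it was 3 with sh-NC, and 1 with FPKM as deposited and 1 to 3 with each library left out, and 6 with sh-B7-H3 (1), with 3 called with FPKM as deposited and 5 to 7 with each library left out. SMAD3 over both shRNAs lost its call only with FPKM as deposited (adjusted p = 0.135 by limma), among 15 alternatives, and TGFBR2 kept its own in all 15. The TGFB1 share over both shRNAs differed by 4.53 to 7.56 percentage points with each library left out. The causes of these shifts were not tested.

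Over all genes, with FPKM as deposited the median log2 fold change moved to 0.17, 0.21 and 0.20 for sh-B7-H3 (1), (2) and both in sorted cells, to 0.12 for the sorted minus bulk effect and to -0.23 for bulk against sorted with sh-B7-H3 (1). Higher calls then made up 84.2%, 83.2% and 86.4% in sorted cells instead of 67.3%, 61.1% and 61.4%, and 57.4%, 50.04% and 49.7% with quantile normalization. In bulk the share was 60.1%, and 70.2% as deposited and 46.5% with quantile normalization. For the sorted minus bulk effect it was 53.6%, 67.2% and 64.3% in that order, for bulk against sorted with sh-NC 61.5%, 79.8% and 43.8%, and with sh-B7-H3 (1) 55.2%, 22.8% and 45.4%. The number of genes called with FPKM as deposited was 961 of 2520 in bulk, 128 against 56 for the sorted minus bulk effect and 652 against 1924 for bulk against sorted with sh-NC. Between the shRNAs 382 genes were called and 137 without the filter. The sorted minus bulk effect gave 25 with a pseudocount of 0.1 and 36 with all groups together, and bulk against sorted with sh-NC gave 3082 with all groups together. With each library left out the counts were 722 to 1948 for sh-B7-H3 (1), 962 to 3614 for sh-B7-H3 (2), 1414 to 2584 for both, 35 to 890 between the shRNAs, 546 to 3793 in bulk, 12 to 72 for the sorted minus bulk effect, and 139 to 4436 (sh-NC) and 1674 to 3814 (sh-B7-H3 (1), 4464 with all libraries) for bulk against sorted.

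Replicate numbers were not treated as pairs, since 8 of 30 same-numbered pairs correlated above 0.1 (-0.662 to 0.514). Between sorted sh-B7-H3 (1) and (2), however, every same-numbered pair did (0.51, 0.43 and 0.44), against -0.45 to 0.15 for different numbers. The main fit between the shRNAs leaves this out. The tests of both shRNAs against sh-NC leave it out too and take the 6 libraries as independent. With a replicate block 0 members were called for sh-B7-H3 (1) and 1 between the shRNAs, and the TGFBR2 call for sh-B7-H3 (1) was lost (adjusted p = 0.0703 by limma). The calls of SMAD7 for both shRNAs (adjusted p = 0.0741 by limma) and TGFB3 for sh-B7-H3 (2) (adjusted p = 0.0652 by limma) were lost too. The block gave 915 genes called in place of 1497 for sh-B7-H3 (1), 1395 in place of 2150 for sh-B7-H3 (2), 1864 in place of 382 between the shRNAs, 1413 in place of 2520 in bulk and 24 in place of 56 for the sorted minus bulk effect.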
